A study of Rattus norvegicus with 418 samples.

Results

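The genes described here are 9 markers of the endothelium of the liver: Stab1, Stab2, Lyve1, Fcgr2b, Kdr, Tek, Pecam1, Vwf and Cdh5. They were chosen by gene symbol as known markers of the sinusoidal or the larger vessels, and where a gene had several probe sets the brightest on average was used. A probe set carried the symbol for 8 of the 9, out of 14217 genes measured, and Cdh5 was not analysed here. Livers came from male F344/N rats of 10 to 12 weeks that were fasted and given 1 of 8 liver toxicants or the vehicle alone, and the left lateral lobe of each was hybridised to its own array. In all, 318 rats were dosed and 100 received vehicle, in 74 dosed and 24 vehicle groups set by compound, dose and time (6, 24 or 48 h). The compounds 1,2-dichlorobenzene and 1,4-dichlorobenzene (each at 15, 150 or 1500 mg/kg), bromobenzene (25, 75 or 250 mg/kg), N-nitrosomorpholine (10, 50 or 300 mg/kg), thioacetamide (15, 50 or 150 mg/kg) and monocrotaline were given by gavage in corn oil. Galactosamine (25, 100 or 400 mg/kg) and diquat dibromide (5, 10, 20 or 25 mg/kg) were given by the I.P. route in PBS. Monocrotaline was labelled 10, 50 and 300 mg/kg at 6 h, 10, 30 and 50 mg/kg at 24 h, and 10 and 50 mg/kg at 48 h. Its 4 rats labelled 30 mg/kg at 24 h all carried a necrosis score of 4, while the 50 mg/kg group of that time ranged from 0 to 1. As 300 mg/kg was the highest dose at 6 h, the label 30 may stand for 300 mg/kg, which the labels do not settle, so the dose of that group is uncertain and it is always called here by its label. The groups used below held 4 rats each, except for 6 in diquat groups and 2 in the thioacetamide vehicle group at 6 h and the 1,2-dichlorobenzene group at 1500 mg/kg and 48 h.

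The sinusoids are the capillaries of the liver, and their endothelium lacks a basement membrane and is pierced by open pores. It clears waste molecules and immune complexes from blood through scavenger receptors. Stab1 and Stab2 encode stabilin-1 and stabilin-2, large scavenger receptors, and stabilin-2 takes up hyaluronan. Lyve1 encodes another hyaluronan receptor, shared with lymphatic vessels. Fcgr2b encodes the inhibitory Fc receptor through which sinusoidal cells take up immune complexes, and B cells and myeloid cells make it too. Kdr encodes the main signalling receptor for VEGF, and Tek encodes TIE2, the receptor for angiopoietins. Pecam1 encodes an adhesion molecule of endothelial junctions that leukocytes and platelets also carry. Vwf encodes von Willebrand factor, the platelet-binding clotting protein stored in the endothelium of larger vessels and in megakaryocytes. Monocrotaline is a plant alkaloid that the liver converts to a reactive pyrrole, and in rats it is known for injury to the sinusoidal endothelium.

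Upstream sequence is shown for the 4 members that the promoter table held (Stab1, Stab2, Kdr and Lyve1), so that their start regions can be read beside the values. Each run is the 250 bases before the annotated start, 5′ to 3′ on the gene's strand, from RefSeq on rat build GRCr8. Stab1 lay at chr16:6367360-6367609 on the minus strand, Stab2 at chr7:23320563-23320812 on the minus strand, Kdr at chr14:32571813-32572062 on the plus strand and Lyve1 at chr1:174410978-174411227 on the minus strand. The Stab2 start used in that table lies inside the annotated gene. Capitals mark GGAA or TTCC, the core read by ETS factors on either strand. A second motif, GATAA or TTATC, a longer form of the site read by GATA factors, had no match in the 4 runs. The shorter core GATA or TATC, which occurs in the runs of Stab1, Kdr and Lyve1, was not counted.
Stab1: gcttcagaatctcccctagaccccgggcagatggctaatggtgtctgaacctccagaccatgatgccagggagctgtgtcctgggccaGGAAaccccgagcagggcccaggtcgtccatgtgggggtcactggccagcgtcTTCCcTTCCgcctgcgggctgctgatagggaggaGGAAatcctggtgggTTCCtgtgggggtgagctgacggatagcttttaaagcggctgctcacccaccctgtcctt
Stab2: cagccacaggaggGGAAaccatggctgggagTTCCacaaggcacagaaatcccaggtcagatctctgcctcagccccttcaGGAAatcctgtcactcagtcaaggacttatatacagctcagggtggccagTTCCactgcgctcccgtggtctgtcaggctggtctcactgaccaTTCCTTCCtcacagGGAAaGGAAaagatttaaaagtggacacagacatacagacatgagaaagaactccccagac
Kdr: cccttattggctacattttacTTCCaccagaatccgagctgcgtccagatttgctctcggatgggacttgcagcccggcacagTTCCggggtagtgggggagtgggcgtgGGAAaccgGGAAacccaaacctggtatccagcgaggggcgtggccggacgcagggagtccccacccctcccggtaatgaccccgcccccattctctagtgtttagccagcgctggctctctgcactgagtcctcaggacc
Lyve1: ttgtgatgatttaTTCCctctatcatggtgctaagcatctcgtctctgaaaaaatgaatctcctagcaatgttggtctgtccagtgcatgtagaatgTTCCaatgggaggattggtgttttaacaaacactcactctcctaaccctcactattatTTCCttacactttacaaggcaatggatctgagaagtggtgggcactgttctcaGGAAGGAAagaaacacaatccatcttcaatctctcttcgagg
The core GGAA or TTCC occurred 5 times in Stab1, 8 times in Stab2, 4 times in Kdr and 5 times in Lyve1. Of all rat promoters in the table, in windows of the same length, 93.2% held at least 1 such core and 23.5% held GATAA or TTATC, so the matches describe these sequences and do not set the 4 apart.

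Signals were in arbitrary units, with every array brought to a trimmed mean of 500. Arrays within groups correlated at 0.965 on median and at 0.84 or above throughout. Albumin (Alb), the defining transcript of liver, read 28828 to 116470 over all arrays. The labels gave 39 hybridisation days, and 36 of the 74 dosed groups shared no day with their vehicle rats. For those groups the day was weighed only through a fit of all arrays, in which 60 of 74 contrasts could be estimated. On 8 arrays at most 8% of probe sets read under 16, and none of them belonged to monocrotaline.

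In vehicle rats all 8 genes were measurable. Over the 100 vehicle rats the signal of Stab1 had a median of 361 (226 to 560), that of Stab2 a median of 949 (537 to 1655) and that of Kdr a median of 3108 (2168 to 4551). Tek read 458 to 1236, Lyve1 1906 to 6685 and Fcgr2b 1857 to 4867. Pecam1 (145 to 380) and Vwf (44 to 338) were the dimmer probe sets, and the median SD within vehicle groups was largest for Vwf, at 0.25 on the log2 scale, and 0.14 to 0.22 for the other 7. Levels of different probe sets are not comparable with each other. In these bulk samples, fewer cells of a type and less RNA per cell cannot be told apart.

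Monocrotaline labelled 30 mg/kg at 24 h lowered both stabilins and both receptor kinases and raised Vwf and Fcgr2b. A gene was called where its change from vehicle passed an adjusted p of 0.05 in limma over all 14217 genes. Of the 8 members, 4 were called lower, against 17.8% of all genes, and 2 were called higher, against 25.8%. The median change was -0.32 over the members and 0.07 over all genes. The 4 dosed and 4 vehicle arrays of this comparison were hybridised on 1 day.

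Among the scavenger receptors, Stab2 read 153, 158, 59 and 211 in the 4 dosed rats and 1119, 862, 537 and 904 in the 4 vehicle rats. Every dosed rat was below every vehicle rat, and the third dosed rat was the lowest. Stab2 fell by 2.49 ± 0.25 (SE, n = 4 and 4) on the log2 scale, a 5.64-fold decrease (limma, adjusted p = 2.48e-11). Stab1 read 150, 151, 71 and 238 after dosing and 403, 437, 313 and 279 after vehicle. The groups again did not overlap, and the same dosed rat was the lowest. Stab1 fell by 1.23 ± 0.22, or 2.34-fold (limma, adjusted p = 7.45e-06). Lyve1, the other hyaluronan receptor, read 3182, 2705, 2592 and 3273 after dosing against 3210, 3264, 2785 and 2714. These values overlapped fully, and the change of -0.03 had a 95% interval from -0.25 to 0.19 (limma, adjusted p = 0.866). Fcgr2b read 3369, 2919, 2760 and 3965 after dosing and 2685, 2516, 2186 and 2528 after vehicle. The dosed rats were all above the vehicle rats by a small margin, with a rise of 0.38 ± 0.12 (limma, adjusted p = 0.00742). That call was lost without dosed rat 4 (0.28, adjusted p = 0.0645), after centring of arrays on their median (0.15, adjusted p = 0.317), in the fit of all arrays (0.38, adjusted p = 0.0926) and with day as a fixed block (0.38, adjusted p = 0.0617).

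Of the receptor kinases, Kdr gave the tightest separation. It read 1018, 904, 895 and 908 in dosed rats and 3256, 3408, 3024 and 2924 in vehicle rats. The dosed values lay within a narrow band far below vehicle, a fall of 1.74 ± 0.10 or 3.34-fold (limma, adjusted p = 2.76e-18). Tek read 507, 471, 476 and 636 after dosing and 854, 840, 708 and 819 after vehicle, also without overlap. It fell by 0.62 ± 0.12, or 1.53-fold (limma, adjusted p = 5.32e-05). A second, dimmer Kdr probe set, under 16 on 17 arrays, moved by -0.45 in the same comparison. That probe set did not follow the first in several other groups. It moved by 0.34 with 300 mg/kg of monocrotaline at 6 h and by 0.50 with 50 mg/kg at 48 h. At 24 h and the highest dose it moved by 0.15 with N-nitrosomorpholine, 0.04 with diquat dibromide and 0.75 with 1,4-dichlorobenzene, but by -1.35 with bromobenzene, -0.32 with thioacetamide and -0.21 with 1,2-dichlorobenzene. The direction given for Kdr is therefore that of the brighter probe set alone.

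Of the 2 remaining genes, Vwf read 564, 319, 442 and 406 after dosing and 159, 177, 197 and 125 after vehicle. Every dosed rat was above every vehicle rat, and Vwf rose by 1.30 ± 0.24, or 2.46-fold (limma, adjusted p = 1.06e-05). Pecam1, the junction molecule, read 257, 273, 316 and 278 against 246, 227, 291 and 187. The 2 groups overlapped, and the change of 0.24 (95% interval -0.14 to 0.62) was not called (limma, adjusted p = 0.336). The plot of single rats at 24 h shows the 30 mg/kg group apart from all other monocrotaline groups for Stab1, Stab2, Kdr, Tek and Vwf.

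**Figure D1:**
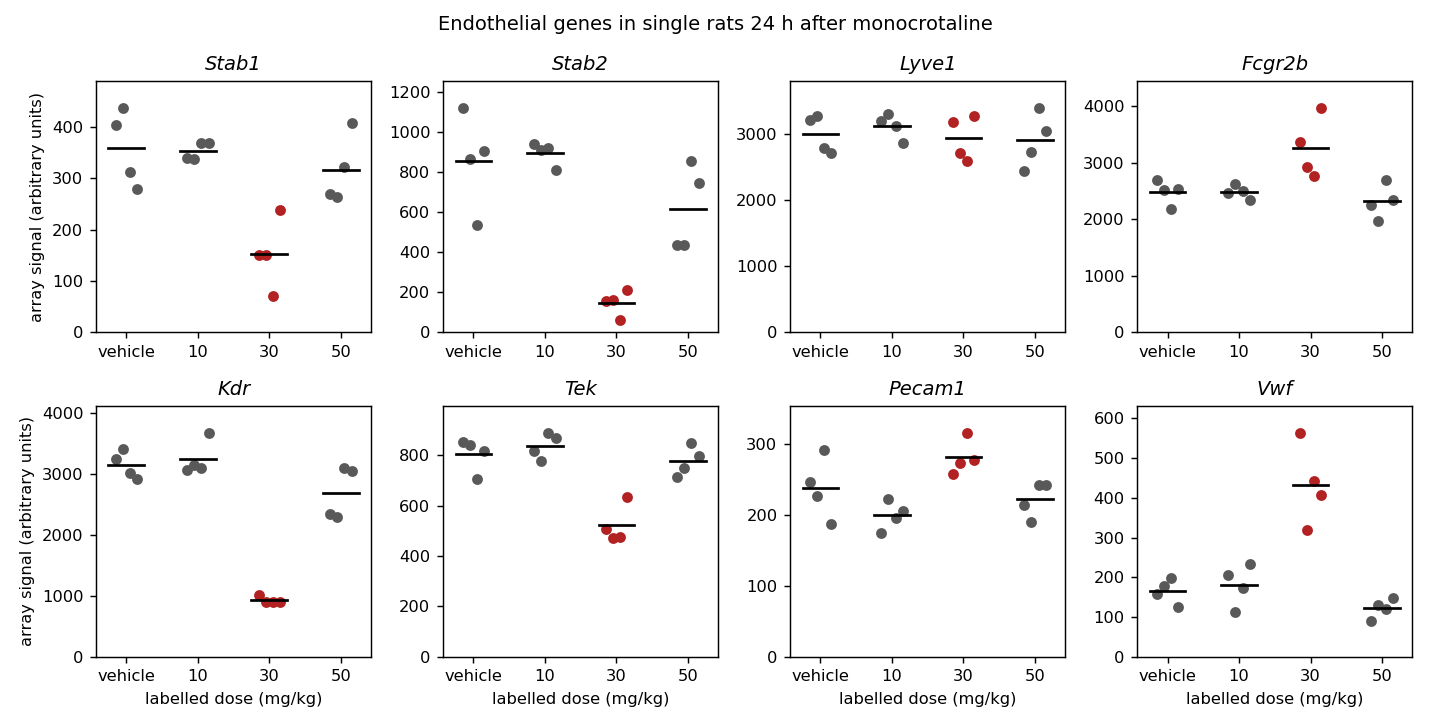
Array signal (arbitrary units, linear axis from 0) of the 8 measured members in each rat 24 h after corn oil vehicle or monocrotaline labelled 10, 30 (red) or 50 mg/kg. Points are single rats (4 per group) and lines are group means. Kdr read 895 to 1018 in the 30 mg/kg group and at least 2298 in every other rat shown.

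Other genes of the same vessels were read from lists of known endothelial genes. In this group 25.8% of all genes were higher and 17.8% lower, the shares to set beside each count. In the VEGF and angiopoietin pathway, 4 of 13 measured genes were higher in this group and 1 was lower, with a list median of 0.01. The higher count lies near the share over all genes. The VEGF co-receptor Nrp1 rose by 0.74 ± 0.15, the TIE2 partner Tie1 by 0.68 ± 0.20 and the TIE2 ligand Angpt2 by 0.92 ± 0.33. Ptprb, the endothelial phosphatase VE-PTP that acts on TIE2, fell by 0.57 ± 0.15. Vegfa, the main VEGF ligand, was not called (-0.22 ± 0.11, adjusted p = 0.101). Of 14 other sinusoidal genes 3 were higher and 6 were lower, with a median of -0.11. The lower ones included the scavenger receptor Cd36 (-1.62 ± 0.28), the secreted nuclease Dnase1l3 (-1.02 ± 0.09), the Wnt ligand Wnt2 (-0.94 ± 0.26) and the mannose receptor Mrc1 (-0.55 ± 0.13), which macrophages also make.

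Of 23 measured genes of general or larger-vessel endothelium, 10 were higher (25.8% of all genes), 1 was lower and 12 were not called, with a median of 0.43. The difference between the lists was not tested. The arterial connexin Gja5 rose by 2.55 ± 0.27, the junction molecule Esam by 1.65 ± 0.21, the ETS factor Fli1 by 1.32 ± 0.19 and the flow-responsive factor Klf4 by 1.89 ± 0.28. Of 8 adhesion and activation genes 6 were higher and 0 were lower. They included the leukocyte ligand Icam1 (1.24 ± 0.10), the chemokine scavenger Ackr3 (3.15 ± 0.28), endothelin Edn1 (1.05 ± 0.29) and the protease Adamts1 (0.76 ± 0.21). Of 6 genes by which endothelium controls clotting 4 were higher: the protein C receptor Procr (2.82 ± 0.28), thrombomodulin Thbd (2.45 ± 0.26) and the plasminogen activators Plat (1.81 ± 0.20) and Plau (1.62 ± 0.23). All values in these 2 paragraphs are log2 changes with SE (n = 4 and 4), called by limma with adjusted p over all genes. Several of these genes are also made by other cells of the liver.

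Markers of other cells moved in the same rats, where 25.8% of all genes were higher and 17.8% lower. The higher counts of platelet, macrophage and stellate cell markers lie near that share. All 7 neutrophil markers were higher (S100a9 by 7.43 ± 0.34), and their summed signal was 34770 to 70570 in dosed rats against 385 to 650 in vehicle rats. Of 5 erythroid markers 3 were higher, with sums of 46489 to 61999 against 12795 to 24112. Of 5 platelet markers 1 was higher (the platelet chemokine Pf4, 2.76 ± 0.24), with sums of 2139 to 3021 against 1098 to 1431. Macrophage markers gave 2 higher and 4 lower of 9, with the Kupffer cell lectin Clec4f at -1.62 ± 0.13 and Cd68 at 1.37 ± 0.13, and sums of 10295 to 13452 against 12931 to 15812. Of 3 B cell markers 0 were called, and Ms4a1 moved by -0.09 ± 0.50. Hepatocyte markers gave 4 lower of 9, with Cyp2e1 at -0.81 ± 0.12, and sums of 340461 to 389476 against 374675 to 495512. Stellate cell markers gave 3 higher and 4 lower of 12 (sums 10787 to 13941 against 13588 to 15584) and cholangiocyte markers 2 higher of 4 (sums 2205 to 2996 against 778 to 1137). No marker of these lists read under 16 in all 8 rats. Their part in the result was not tested.

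The other monocrotaline groups differed from this one. At 24 h and 50 mg/kg, 0 of 8 members were called in limma, where 6.07% of all genes were higher and 5.18% lower. Without adjustment Kdr alone passed the same threshold there, with a change of -0.23 ± 0.10. Stab2 read 433, 434, 854 and 745 in that group, with 2 rats below all vehicle rats and 2 within their range. The labelled doses give no dose order for this comparison, since the label 30 may stand for 300 mg/kg. Set directly against the 50 mg/kg group, the group labelled 30 mg/kg was lower for 4 members (17.1% of all genes) and higher for 2 (23.7%). The differences were -2.01 ± 0.25 for Stab2, -1.51 ± 0.10 for Kdr, -1.05 ± 0.22 for Stab1 and -0.57 ± 0.12 for Tek, and 1.68 ± 0.24 for Vwf and 0.48 ± 0.12 for Fcgr2b (limma, adjusted p from 4.57e-16 to 0.00077), where the median of all genes was 0.117. The Fcgr2b call was lost after median centring (0.23, adjusted p = 0.124) and with day as a fixed block (0.40, adjusted p = 0.194). At 10 mg/kg 0 members were called at any of the 3 times in limma, and 0 passed the same threshold without adjustment. Of all genes, 3.07% were called there at 6 h, 0.0914% at 24 h and 0.0281% at 48 h.

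At 6 h Kdr, read from its brighter probe set, and Tek were lower with both 50 and 300 mg/kg. With 50 mg/kg, 4 members were lower (17.7% of all genes) and 0 higher (17.5%). Kdr read 2261, 2165, 2497 and 2290 against 3867, 4052, 3886 and 3978 in vehicle rats, and Tek read 498, 495, 523 and 633 against 1050, 908, 887 and 986. Neither pair of groups overlapped, and the changes were -0.77 ± 0.10 for Kdr and -0.82 ± 0.12 for Tek (limma, adjusted p = 4.85e-08 and 5.5e-07). Stab2 changed by -1.39 ± 0.25 and Lyve1 by -0.52 ± 0.11. With 300 mg/kg, 2 were lower (20.1%) and 2 higher (18.3%). Kdr read 2000, 2016, 2061 and 1800, again below all vehicle rats, and changed by -1.0 ± 0.10, while Tek changed by -0.84 ± 0.12. Pecam1 was higher by 0.62 ± 0.19 and Fcgr2b by 0.32 ± 0.12. Stab2 read 1194, 1015, 741 and 640 there, and its change of -0.47 ± 0.25 was not called (limma, adjusted p = 0.143). The Fcgr2b call at 300 mg/kg was lost without vehicle rat 2 or 4, or dosed rat 1, 3 or 4 (0.26 to 0.31), with quantile normalization (0.24, adjusted p = 0.13), in the fit of all arrays (0.32, adjusted p = 0.183) and with day as a random block (0.33, adjusted p = 0.0525). With the mean of its 2 probe sets Kdr changed by -0.45 (adjusted p = 0.111) at 50 mg/kg and by -0.33 (adjusted p = 0.249) at 300 mg/kg. The dosed arrays of 50 and 300 mg/kg shared no hybridisation day with the vehicle arrays at 6 h, so day and dose cannot be told apart in these 2 groups. Neutrophil marker sums in the 300 mg/kg rats were 2077 to 2811 against 241 to 383 in vehicle rats, and their part in the result was not tested.

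At 48 h and 50 mg/kg, on arrays of 1 day, 2 members were lower (4.18% of all genes) and 1 was higher (5.11%). Kdr read 1360, 1235, 1941 and 1647 against 2640, 2827, 2649 and 3344, and all dosed rats were below vehicle. It fell by 0.90 ± 0.10 and Tek by 0.59 ± 0.12 (limma, adjusted p = 4.8e-08 and 0.000911). Lyve1 rose by 0.48 ± 0.11 (adjusted p = 0.00238), with 1 vehicle rat of 3913 just above the lowest dosed rat of 3904. The Lyve1 call was lost in the fit of all arrays (0.48, adjusted p = 0.0942) and with day as a fixed block (0.48, adjusted p = 0.0729). With the mean of its 2 probe sets Kdr changed by -0.20 (adjusted p = 0.695).

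Across all compounds, the 8 members in 74 dosed groups gave 592 contrasts. Of these, 72 were called lower and 59 higher, where 6.90% of all gene and group pairs were lower and 8.76% higher. Kdr was lower in 24 groups and higher in 0, and Stab1 was lower in 14 and higher in 0. Tek was lower in 14 and higher in 3, and Stab2 was lower in 11 and higher in 6. Fcgr2b was higher in 21 and lower in 2, and Lyve1 was higher in 14 and lower in 3. Pecam1 was higher in 8 and lower in 1 and Vwf higher in 7 and lower in 3, so their higher counts lie near the share over all gene and group pairs. With the mean of the probe sets of each gene, 61 contrasts were lower and 58 higher. In the 60 dosed groups that a fit with day as a fixed block could estimate, the counts went from 59 to 47 lower and from 40 to 26 higher when day was added.

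Most calls came at the highest doses, as did most calls over all genes (56135 of 92115 higher and 44853 of 72624 lower). In the 24 groups of the highest labelled dose (3 times for each compound, with 50 mg/kg for monocrotaline at 24 h and not the group labelled 30), where 13.1% of gene and group pairs were lower and 16.5% higher, Kdr was lower in 16 groups and Stab1 in 9. Fcgr2b was higher in 14 of them and Lyve1 in 10. By compound, thioacetamide gave 19 higher and 9 lower of 72 contrasts (18.7% and 12.7% over all genes) and galactosamine 11 higher and 2 lower of 72 (6.41% and 5.04%). Monocrotaline gave 5 higher and 12 lower of 64 (9.33% and 8.29%), bromobenzene 2 higher and 10 lower of 72 (8.64% and 6.60%), and 1,2-dichlorobenzene 2 higher and 11 lower of 72 (7.64% and 6.35%). N-nitrosomorpholine gave 10 higher and 15 lower of 72 (14.3% and 10.9%), 1,4-dichlorobenzene 4 higher and 10 lower of 72 (3.96% and 3.66%), and diquat dibromide 6 higher and 3 lower of 96 (2.99% and 3.08%). The plot of all dosed groups shows the calls of Kdr and Stab1 on the lower side and most calls of Fcgr2b and Lyve1 on the higher side.

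**Figure D2:**
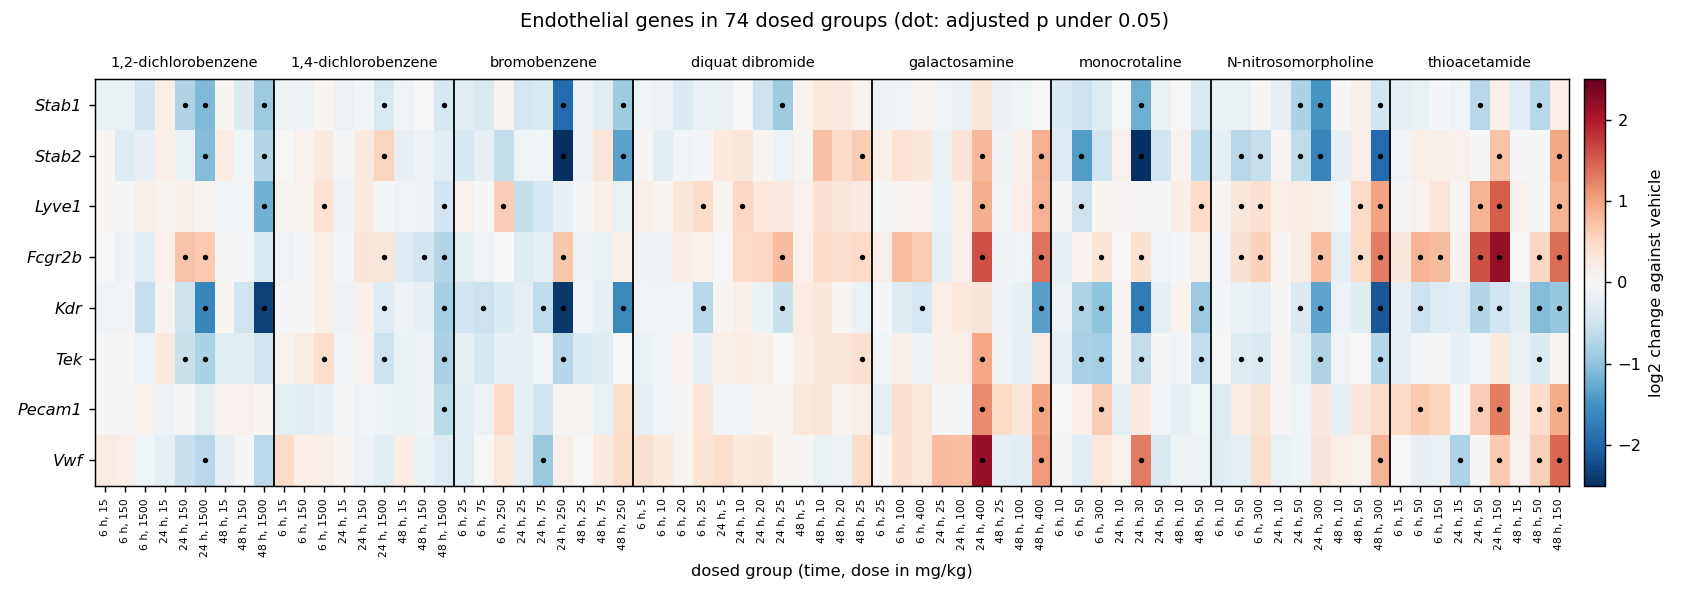
Log2 change of the 8 members (rows) against vehicle of the same compound and time in 74 dosed groups (columns, by compound, then time and dose in mg/kg). Blue is lower and red higher, colours end at a change of 2.5 in either direction, and dots mark an adjusted p under 0.05 in limma. Kdr has 24 dots and Stab1 14, all on lower values, while Fcgr2b has 21 dots on higher values.

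Bromobenzene, an aryl halide that the liver turns into a reactive epoxide, lowered the same 4 genes as monocrotaline. At 250 mg/kg and 24 h, where every rat also scored 4, Stab2 read 188, 198, 15 and 245 against 966, 599, 1088 and 800. All dosed rats were below vehicle, and the third was close to the floor of the array. Stab2 fell by 2.65 ± 0.35, and by 1.93 without that rat, Kdr by 2.42 ± 0.19 and Stab1 by 1.95 ± 0.33 (limma, adjusted p = 1.91e-08, 7.04e-15 and 2.33e-06). Tek fell by 0.72 ± 0.20, with dosed and vehicle rats overlapping, and Fcgr2b rose by 0.70 ± 0.10. Thus 4 members were lower (16% of all genes) and 1 higher (23.5%), while the median of all genes was 0.17. Vwf read 225, 218, 157 and 211 against 151, 187, 188 and 204, and its change of 0.14 (95% interval -0.46 to 0.73) was not called. Within the day shared by 2 dosed and 4 vehicle arrays, Stab2 changed by -3.26 and Kdr by -2.26. Neutrophil marker sums were 32419 to 51460 against 413 to 750 in vehicle rats, and their part in the result was not tested. At 250 mg/kg and 48 h, again with every rat at score 4, 3 members were lower (1986 of 14217 genes) and 0 higher (3139 genes). Kdr changed by -1.62 ± 0.19, Stab2 by -1.33 ± 0.35 and Stab1 by -0.89 ± 0.33. Tek (0.01 ± 0.20) and Fcgr2b (0.14 ± 0.10) were not called.

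Thioacetamide and galactosamine each raised Stab2, Lyve1, Fcgr2b, Pecam1 and Vwf at 24 h, and thioacetamide lowered Kdr. In both comparisons, at 150 and 400 mg/kg, the dosed arrays shared no hybridisation day with their vehicle arrays. Day and dose can therefore not be told apart within either of them. With thioacetamide at 150 mg/kg, again all at score 4, Fcgr2b read 9497, 9222, 10584 and 9305 against 2054, 1940, 2483 and 1959, and Lyve1 read 5805, 7849, 10552 and 8155 against 2463, 3005, 3188 and 2427. Neither pair of groups overlapped. Fcgr2b rose by 2.19 ± 0.10, Lyve1 by 1.52 ± 0.14, Pecam1 by 1.27 ± 0.18, Stab2 by 0.71 ± 0.16 and Vwf by 0.66 ± 0.23, and Kdr fell by 0.48 ± 0.15 (5 members higher where 30.5% of all genes were, 1 lower where 22.5% were). With day as a fixed block the Stab2 call (0.68, adjusted p = 0.125), the Vwf call (0.41, adjusted p = 0.459) and the Kdr call (-0.33, adjusted p = 0.387) were lost. The Vwf call was also lost with quantile normalization (0.49, adjusted p = 0.0834) and after median centring (0.39, adjusted p = 0.144). The Kdr call was also lost with the mean of its 2 probe sets (-0.40, adjusted p = 0.0812) and without dosed rat 1 (-0.31, adjusted p = 0.0646) and the Vwf call was lost without vehicle rat 2 (0.53, adjusted p = 0.0672). Of 9 macrophage markers 7 were higher there, with sums of 20103 to 27485 against 12028 to 13487, and their part in the result was not tested. With galactosamine at 400 mg/kg, 6 members were higher (21.4% of all genes) and 0 lower (15.0%). Vwf read 823, 204, 670 and 1073 against 44, 134, 212 and 147, and Fcgr2b read 11904, 2079, 10368 and 14978 against 2479, 2244, 3098 and 2471. Rat 2 of the dosed group stayed at vehicle level for both, and the other 3 were far above it. Rat 2 had a necrosis score of 0, in a group whose scores ran from 0 to 3. The part of the score was not tested. Vwf changed by 2.17 ± 0.35 and Fcgr2b by 1.62 ± 0.36, or 2.26 without rat 2. Fitted on these 2 groups alone, none of the 6 galactosamine calls held (adjusted p from 0.0583 to 0.0889). In that group 7 of 9 macrophage markers were higher (sums of 15011 to 30140 against 11345 to 13787), as were 5 of 7 neutrophil markers (687 to 16709 against 430 to 1251), 9 of 12 stellate cell markers (13794 to 29095 against 12254 to 14456) and 1 of 3 B cell markers, Cd74 (1.60 ± 0.28). Their part in the result was not tested.

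N-nitrosomorpholine, a nitrosamine carcinogen, lowered the stabilins and the receptor kinases and raised Fcgr2b. At 300 mg/kg and 24 h 4 members were lower (18.9% of all genes) and 1 higher (27.2%), with Stab2 at -1.67 ± 0.19, Stab1 at -1.47 ± 0.16, Kdr at -1.31 ± 0.12 (0.15 by its second probe set), Tek at -0.76 ± 0.11 and Fcgr2b at 0.76 ± 0.14. All 7 neutrophil markers were higher there, with sums of 2758 to 17387 against 294 to 488, and their part in the result was not tested. At 48 h, when all 4 rats scored 4, Kdr read 644, 709, 736 and 828 against 3428, 3386, 2964 and 3209. Lyve1 read 6033, 5887, 5625 and 5490 against 2879, 3363, 2548 and 2732 in the same rats, so the 2 genes were separated from vehicle in opposite directions. Kdr fell by 2.13 ± 0.12 and Stab2 by 1.94 ± 0.19, and Fcgr2b rose by 1.27 ± 0.14, Lyve1 by 1.00 ± 0.12 and Vwf by 0.85 ± 0.23 (4 lower where 19.4% of all genes were, 3 higher where 30.1% were). 

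The 2 dichlorobenzenes differ only in where the second chlorine sits on the ring. At 1500 mg/kg and 24 h Kdr read 784, 291, 1133 and 1313 after 1,2-dichlorobenzene against 2546, 2420, 2560 and 2175. All dosed rats were below vehicle, and Kdr fell by 1.64 ± 0.25, Stab1 by 1.10 ± 0.21, Stab2 by 1.09 ± 0.18, Tek by 0.80 ± 0.20 and Vwf by 0.70 ± 0.29, while Fcgr2b rose by 0.65 ± 0.17 (5 lower where 20.9% of all genes were, 1 higher where 22.3% were). Fcgr2b read 2869, 7174, 2561 and 2993 against 2707, 2045, 2249 and 2100, so dosed rat 2 stood far above the others, and without it the rise was 0.31. Dosed rat 2 had a necrosis score of 4, in a group whose scores ran from 0 to 4, and the part of the score was not tested. The Vwf call was lost without any 1 of 6 of the 8 arrays (-0.52 to -0.70), namely dosed rats 1, 3 and 4 and vehicle rats 1, 2 and 4. After 1,4-dichlorobenzene Kdr read 2378, 3238, 2418 and 2601 against 3192, 3013, 3577 and 3457, with 1 dosed rat inside the vehicle range. Stab2 rose by 0.55 ± 0.12 and Fcgr2b by 0.30 ± 0.10, and Tek fell by 0.52 ± 0.11, Stab1 by 0.39 ± 0.13 and Kdr by 0.32 ± 0.09 (2 higher where 18.6% were, 3 lower where 14.7% were). With day as a fixed block none of these 5 calls held (adjusted p from 0.103 to 0.897), and Kdr moved by 0.22 with the mean of its 2 probe sets. Among single arrays, the Fcgr2b call was lost without vehicle rat 1 (0.26) or 2 (0.22) and the Stab1 call without dosed rat 1 (-0.36) or vehicle rat 4 (-0.30). The difference between the 2 isomers was not tested.

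Diquat dibromide, a redox-cycling herbicide, at 25 mg/kg and 24 h lowered Stab1 (-0.88 ± 0.16) and Kdr (-0.56 ± 0.19) and raised Fcgr2b (0.77 ± 0.15), so 2 were lower (9.64% of all genes) and 1 higher (12.0%). The vehicle rats of this comparison had necrosis scores from 0 to 1. With day as a fixed block none of the 3 calls held (adjusted p from 0.25 to 0.491). The Kdr call was lost without dosed rat 3, 5 or 6 or vehicle rat 4 (-0.46 to -0.51), and its second probe set moved by 0.04. Of 7 neutrophil markers 5 were higher in this group, with sums of 379 to 16076 against 294 to 452, and macrophage markers gave 2 higher and 2 lower of 9. Their part in the result was not tested. The plot of changes at 24 h sets the 8 compounds side by side.

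**Figure D3:**
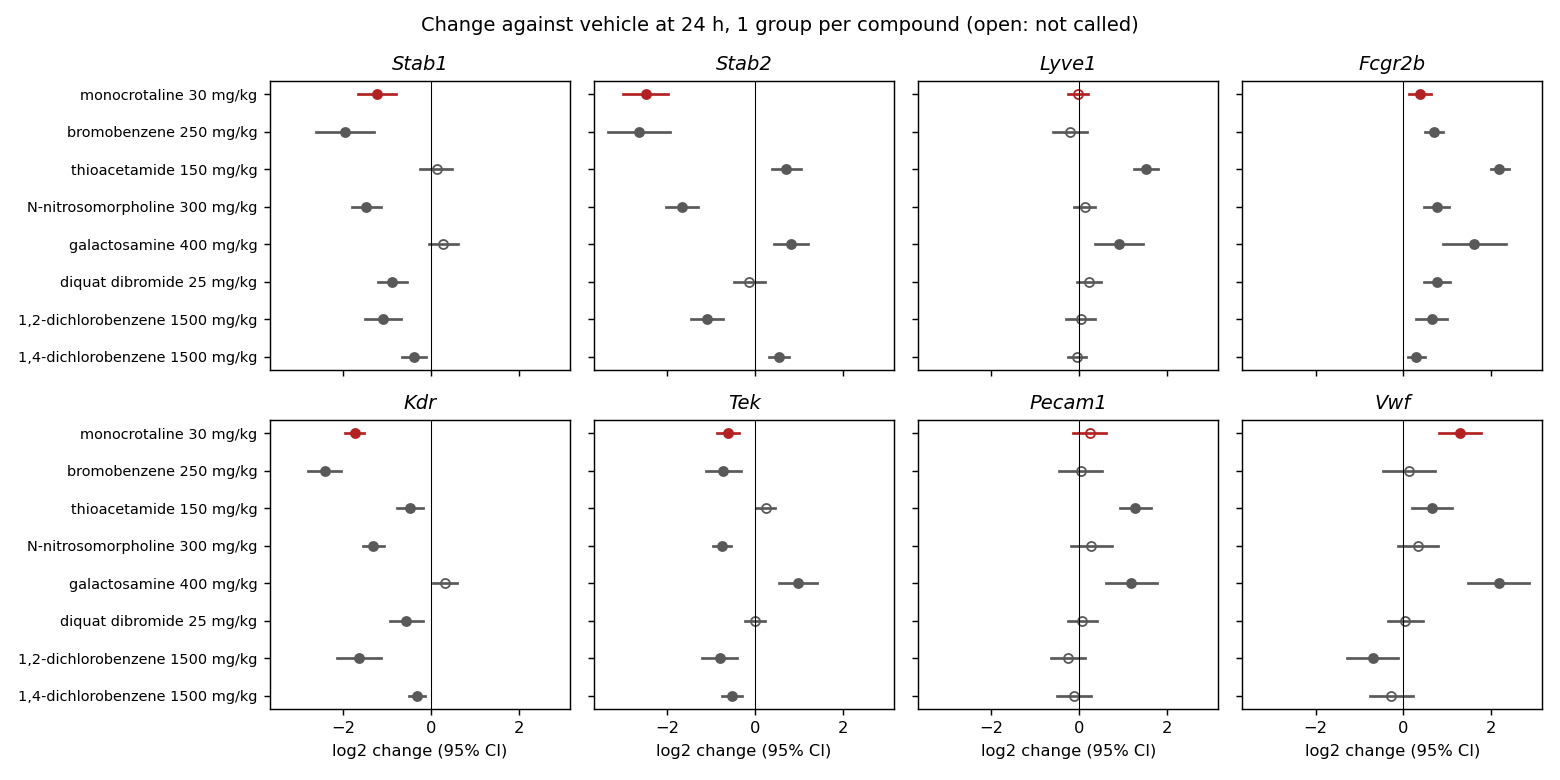
Log2 change against vehicle at 24 h with its 95% interval (limma) for the 8 members, in the monocrotaline group labelled 30 mg/kg (red) and the highest-dose group of each other compound. Filled points passed an adjusted p of 0.05 and open points did not. Stab2 ran from -2.65 with bromobenzene to 0.81 with galactosamine, and Fcgr2b was above 0 in all 8 groups.

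To ask where monocrotaline stood apart, its change was set against the mean change of the 7 other compounds at their highest doses in 1 fit of all arrays. The doses and necrosis scores of these groups differ, so the difference is one between these groups and not between matched exposures. At 24 h the monocrotaline group labelled 30 mg/kg was lower than the mean of the others for 3 members (3.86% of all genes) and higher for 1 (5.39%). Stab2 differed by -2.0 ± 0.24, Kdr by -0.83 ± 0.19 and Fcgr2b by -0.62 ± 0.20, and Vwf by 0.96 ± 0.28 (limma, adjusted p = 5.9e-12, 0.00107, 0.028 and 0.0134). Fcgr2b was not lower than vehicle in monocrotaline rats: its difference comes from the larger values of the other compounds. The Fcgr2b difference was not called without galactosamine (-0.52, adjusted p = 0.0802) or thioacetamide (-0.42, adjusted p = 0.179) in the mean, or without vehicle rat 1, 2 or 4 or dosed rat 2 or 3 of monocrotaline (-0.55 to -0.61). The Vwf difference was not called without 1,2-dichlorobenzene (0.79, adjusted p = 0.0672), without vehicle rat 4 (0.85, adjusted p = 0.0597) or without dosed rat 1 (0.83, adjusted p = 0.0683). With the mean of its 2 probe sets the Kdr difference was -0.55 (adjusted p = 0.187). Stab1 (-0.46 ± 0.22) was not called, but was without bromobenzene in the mean (-0.66, adjusted p = 0.0353) and without dosed rat 4 (-0.69, adjusted p = 0.0409).

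Compound by compound, 7 differences per member and time were tested, with p adjusted over all genes in each. Over the 7 differences at 24 h, 7.13% of gene and compound pairs were lower and 8.88% higher. Stab2 was lower with monocrotaline than with 5 of the 7, and the differences ran from -3.31 to 0.16. Kdr was lower than with 4 of 7 (-2.06 to 0.68), Stab1 and Tek each lower than with 3 of 7, and Vwf higher than with 4 of 7 (-0.87 to 2.00). Against N-nitrosomorpholine at 300 mg/kg 0 members were called at 24 h, where 138 of 14217 genes were lower and 159 higher. The same held at 6 h, where 445 genes were lower and 257 higher. Against bromobenzene at 24 h 0 members were lower and 1 was higher (1101 and 1320 genes). At 6 h, where 9.26% of pairs were lower and 8.49% higher, Tek was lower than with 6 of 7 (-1.28 to -0.48). Kdr was lower than with only 1 of 7 (-1.14 to -0.3), and Pecam1 was higher than with 1 (0.05 to 0.81). The difference from the mean of 7 was -0.76 ± 0.17 for Tek and -0.65 ± 0.19 for Kdr (limma, adjusted p = 0.000116 and 0.0075). Thus 2 members were lower where 11.1% of all genes were, and 0 higher where 9.95% were. The monocrotaline arrays at 300 mg/kg shared no hybridisation day with their vehicle arrays. With the mean of its 2 probe sets Kdr differed by -0.12 at 6 h (adjusted p = 0.811). At 48 h 0 members were called against the mean of 7 by limma, where 18.0% of all genes were lower and 10.3% higher. Compound by compound at 48 h, where 14.0% of pairs were lower and 8.57% higher, Tek was lower than with 4 of 7 (-0.98 to 0.21), Vwf lower than with 3 (-1.59 to 0.52) and Pecam1 lower than with 2. Stab2 was lower than with 3 and higher than with 1 (-1.63 to 1.27), as was Fcgr2b (-1.26 to 0.86), while Kdr was lower than with 1 and higher than with 3 (-0.74 to 1.43), Lyve1 was higher than with 3 (-0.52 to 1.67) and Stab1 was not called. In the difference from the mean, 3 passed the same threshold without adjustment: Tek (-0.40 ± 0.17), Kdr (0.44 ± 0.19) and Vwf (-0.62 ± 0.28). The median of all genes was -0.125 in that difference.

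The 3 groups at 24 h in which every rat scored 4 allow a comparison at an equal grade of necrosis. Against the mean of bromobenzene at 250 mg/kg and thioacetamide at 150 mg/kg, monocrotaline was lower for 3 members (6.25% of all genes) and higher for 1 (8.48%). Stab2 differed by -1.52 ± 0.28, Fcgr2b by -1.07 ± 0.23, Lyve1 by -0.69 ± 0.21 and Vwf by 0.90 ± 0.32 (limma, adjusted p = 6.46e-06, 0.000141, 0.0134 and 0.0405). These 2 reference groups themselves lay far apart, with Stab2 at -2.65 after bromobenzene and 0.71 after thioacetamide. The thioacetamide arrays shared no hybridisation day with their vehicle arrays. Against bromobenzene alone 0 members were lower and 1 was higher, where 1101 of 14217 genes were lower and 1320 higher. Against thioacetamide alone 7 members were lower and 0 higher, where 687 genes were lower and 904 higher. Neither the lower calls nor the higher call against the mean are therefore shared by both references. The Kdr difference was -0.29 with a 95% interval from -0.73 to 0.15 (adjusted p = 0.445). The Vwf call was lost when any 1 of 9 arrays was left out (0.77 to 0.92, adjusted p from 0.0512 to 0.127): monocrotaline dosed rats 1, 3 and 4 and vehicle rats 1 and 4, bromobenzene dosed rat 3 and vehicle rat 4, or thioacetamide vehicle rat 1 or 3.

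Necrosis scores and the members were then read together. Over the 74 dosed groups the change of Kdr had a Pearson's r of -0.78 and a Spearman's rho of -0.73 with the mean necrosis score of the group. Fcgr2b had an r of 0.64 (rho 0.61), Pecam1 0.57 (rho 0.58), Stab1 -0.50 (rho -0.37) and Stab2 -0.41 (rho -0.20). These are descriptions over 74 groups that share vehicle rats and doses of the same compounds. In the plot against necrosis score, Stab2 split at a score of 4, with 1 group above 0 and 4 groups between -1.33 and -2.65. In the 25 dosed groups whose rats all scored 0, 9 of 200 contrasts of members were called, where 2.37% of all gene and group pairs were called. All 9 were in 1,4-dichlorobenzene groups. At 1500 mg/kg and 48 h 6 members were lower (9.87% of all genes), with changes of -0.83 ± 0.09 for Kdr, -0.74 ± 0.10 for Fcgr2b and -0.68 ± 0.19 for Pecam1 (limma, adjusted p = 9.97e-10, 1.32e-07 and 0.00623). Those dosed arrays shared no hybridisation day with their vehicle arrays, so day and dose cannot be told apart there. At 1500 mg/kg and 6 h Lyve1 and Tek were higher, where 633 of 14217 genes were. The arrays of vehicle rats 1 and 4 in that comparison were among those with few dim probe sets (5.31% and 7.98% under 16). At 150 mg/kg and 48 h Fcgr2b was lower, where 4 of 14217 genes were.

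**Figure D4:**
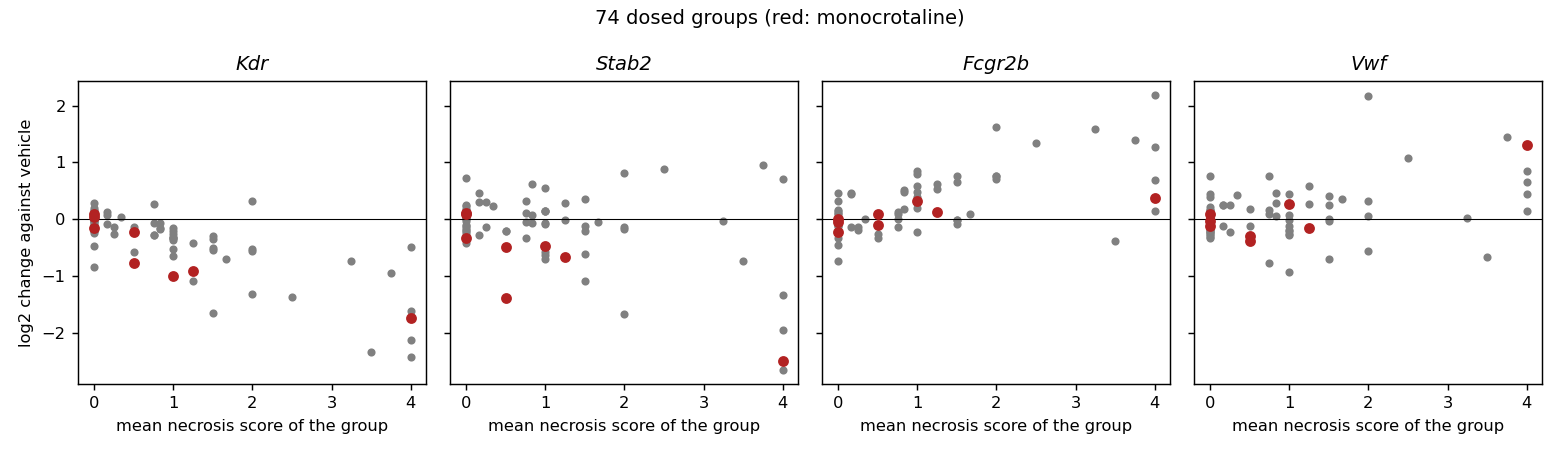
Log2 change against vehicle (vertical axis) and mean necrosis score (horizontal axis, 0 to 4) of 74 dosed groups for Kdr, Stab2, Fcgr2b and Vwf. Each point is 1 group, with monocrotaline groups in red. Changes of Kdr were more negative at higher scores (r = -0.78 over groups), and at a score of 4 Stab2 ran from -2.65 to 0.71.

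Within groups of the same compound, dose and time, 28 held both rats with and without necrosis (136 rats, 63 of them necrotic, 72 of the diquat series). Those 72 include vehicle rats. The diquat vehicle groups held necrosis scores up to 1 at 6 h, up to 1 at 24 h and up to 2 at 48 h. With the group as a block, necrotic rats had higher Fcgr2b (0.28 ± 0.05) and lower Kdr (-0.22 ± 0.05) and Stab1 (-0.21 ± 0.06) (limma, adjusted p = 1.28e-06, 0.000138 and 0.000963). Thus 1 member was higher (16.6% of all genes) and 2 were lower (14.4%). Stab2 differed by -0.02, with a 95% interval from -0.15 to 0.10. Without the diquat series, vehicle rats included, the Kdr difference was -0.05 (adjusted p = 0.76) and the Stab1 difference was -0.17 (adjusted p = 0.175).

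The members formed 2 loose sets by their changes over the 74 groups. Stab1 and Stab2 had an r of 0.77, Stab1 and Kdr 0.74, Stab2 and Tek 0.69, and Stab2 and Kdr 0.68. Fcgr2b and Pecam1 had an r of 0.77, and Fcgr2b and Lyve1 0.75. Between Stab1, Stab2, Kdr and Tek on one side and Fcgr2b, Pecam1, Lyve1 and Vwf on the other, r ran from -0.25 for Fcgr2b and Kdr to 0.38 for Lyve1 and Tek. The genes whose change was most like the mean of the 8 members over the same groups were Ptprb (r = 0.84, changes from -2.11 to 1.14), Pde2a (0.83), Abi3bp (0.82) and the endothelial sialomucin Emcn (0.79, from -1.61 to 1.76). They were followed by C1qa (0.78), Adam23 and Arhgap23 (0.76 each), Ccl5 and Tmtc1 (0.75 each) and Fam167b (0.74). These correlations share arrays and vehicle rats and are given as descriptions.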

How the data were processed

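The deposited values were log2 MAS5 signals, which the authors had brought to a 2% trimmed mean of 500 linear units per array, with a MAS5 version not given in the sources used here. Each array came from 1 rat. Of 31099 probe sets, 20826 had 1 gene symbol in the platform annotation, and those gave 14217 genes, each read from its brightest probe set on average. Kdr and Lyve1 had 2 probe sets. Signals were analysed as log2(signal + 16), so changes of dim genes are understated. Each dosed group was compared with the vehicle group of its compound and time in limma 3.58.1 (R 4.3.3), with 1 fit per compound, eBayes with trend, and Benjamini-Hochberg adjustment over all genes; genes were called at an adjusted p under 0.05. Differences between compounds were contrasts in 1 fit of all 418 arrays, and the necrosis class was tested with the group as a block. Precision is limited by how many arrays a group has. The steps were tested on simulated data. All members are named, with up to 4 called genes per list at the smallest adjusted p in the monocrotaline group labelled 30 mg/kg, and the 10 genes most like the mean of the members. Further genes outside that rule (Ms4a1, Vegfa, Cd74) were chosen after their values were seen. Members, lists and tests were chosen with earlier results of these data known. Alternatives covered normalization, pseudocount, filter, probe sets, fit, hybridisation day and leaving out each array.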

Additional observations from a re-analysis of the deposited data

Results flagged for a closer look

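A gap test for a single distant rat (Dixon's ratio at the 95% level) was made on 200 sets of a member in a group, where chance alone flags about 1 in 20, and it marked 12. With monocrotaline, Kdr of rat 1 labelled 30 mg/kg at 24 h read 1018 against 895 to 908 in the others. Kdr of rat 4 at 10 mg/kg and 24 h read 3684 (others 3066 to 3158), and Kdr of rat 2 at 10 mg/kg and 48 h read 2710 (3109 to 3184). Tek of rat 4 at 10 mg/kg and 48 h read 713 (918 to 945), Stab1 of rat 4 at 50 mg/kg and 48 h read 169 (271 to 297), and Stab2 of rat 2 at 10 mg/kg and 6 h read 1415 (850 to 864). With bromobenzene at 250 mg/kg and 24 h, Stab2 of rat 3 read 15 (188 to 245) and Kdr of rat 1 read 403 (568 to 606). Lyve1 of rat 2 given galactosamine at 400 mg/kg read 2578 (7278 to 8370). Fcgr2b of rat 2 read 7174 (2561 to 2993) with 1,2-dichlorobenzene at 1500 mg/kg and 3064 (4682 to 5094) with N-nitrosomorpholine at 300 mg/kg, both at 24 h. Vwf of vehicle rat 3 of 1,2-dichlorobenzene at 24 h read 151 (189 to 197). The necrosis score of the galactosamine rat was 0 (group range 0 to 3). That of the 1,2-dichlorobenzene dosed rat was 4 (0 to 4), and that of the N-nitrosomorpholine rat was 1 (1 to 3). The part of the scores was not tested.

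Differences between monocrotaline and other compounds that passed the test of the difference itself (limma, adjusted p under 0.05) were as follows. At 24 h against the mean of 7 compounds they were -2.0 for Stab2, -0.83 for Kdr, -0.62 for Fcgr2b and 0.96 for Vwf. At 6 h they were -0.76 for Tek and -0.65 for Kdr. Against bromobenzene and thioacetamide at 24 h they were -1.52 for Stab2, -1.07 for Fcgr2b, -0.69 for Lyve1 and 0.90 for Vwf.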

How the results depend on the processing

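Over all dosed groups, the counts of members called lower (61 to 81) and higher (46 to 59) stayed within 1.5 times of 72 and 59 under 10 alternatives, with the day as a fixed block not fitted over all 74 groups. The 4 members called lower with monocrotaline labelled 30 mg/kg at 24 h numbered 4 under every alternative, and the count called higher went from 2 to 1 after median centring, with only the genes above the median by mean signal (which leaves out Vwf and Pecam1), in the fit of all arrays and with day as a fixed block, and was 1 to 2 when 1 array was left out. Against 50 mg/kg, the count called higher went from 2 to 1 after median centring, among the brighter genes and with day as a fixed block. Against the mean of 7 compounds at 24 h, the count called higher went from 1 to 0 among the brighter genes and without 1,2-dichlorobenzene; leaving out 1 array gave 0 to 1 higher and 2 to 4 lower. Against the groups of equal score, the count called higher went from 1 to 0 among the brighter genes and was 0 to 1 when 1 array was left out, with 3 lower each time. At 6 h the count lower went from 2 to 1 with the mean of all probe sets.

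At 48 h against the mean of 7 compounds, 0 became 1 lower with quantile normalization, among the brighter genes and less the 8 arrays with few dim probe sets, 3 without 1,2-dichlorobenzene, 4 without 1,4-dichlorobenzene and 2 without N-nitrosomorpholine. It became 1 higher with quantile normalization, with the mean of all probe sets and without 1,4-dichlorobenzene, diquat dibromide or thioacetamide, and 2 higher after median centring. For the necrosis class, 1 higher became 2 with quantile normalization, among the brighter genes, with the mean of all probe sets, less those 8 arrays, without diquat dibromide and with the score as a number, and 4 with blocks of compound and time; 2 lower became 4 with those blocks and 0 without diquat dibromide. In those blocks the Tek difference was -0.15, against 0.02 with the group as a block, and with the mean of its probe sets Kdr moved by 0.22 with 1,4-dichlorobenzene at 1500 mg/kg and 24 h, against -0.32. The causes were not tested. Of 1620 values of single members under alternatives other than leaving out an array, 1523 were counted as the same. These kept their side of the threshold, except that 8 values within 1 day had no p and were judged by their distance from the main value. A further 2 changed sign with a call in the main fit or in the alternative. Changes of sign without a call in either were not counted. Each of 92 arrays was left out of a comparison with vehicle and each of 24 out of a difference between compounds; calls lost that way are named beside the results, and 8 values gained a call. No paired analysis was possible because the labels give no animal, litter or number shared by dosed and vehicle rats. Groups of 4 rats limit what could be called, and Pecam1 and Vwf were dim. Stab1 was the next dimmest member but lay among the brighter genes.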
